A study of Mus musculus with 18 samples.

Results

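WEHI-231 is a murine B lymphoma line with an immature B cell phenotype, and the clones #A-59 and #B-20 are single-cell derived lines of it in which Cas9 with guides against exon 3 or exon 5 of Tfeb was used to disrupt that gene. The samples described here are the 6 #B-20 and the 6 #A-59 libraries, 12 of 18 in the series, and they were chosen by their labels alone. Each clone was left untreated (0 h) or was BCR-stimulated with 10 µg/ml anti-IgM F(ab')2 for 6 or 18 h, with 2 libraries per clone and time from independent experiments. The other 6 libraries are the parental line at the same times, and they enter only as a reference level. Every group thus carries the same tumor background, both clones carry a Tfeb mutation, and each clone stands for a single cell that was expanded. Which guide made which clone is not given in the sources used here. Clones of untouched cells were not analysed here either, so the edit and the drift of a single founder cell cannot be told apart in any value below.

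TFEB is a basic helix-loop-helix transcription factor of the MiT family that binds E box sequences in the promoters of lysosomal and autophagy genes and moves to the nucleus when it is activated. B cells take up antigen through the BCR and obtain help from T cells by presenting its peptides on MHC class II molecules, whose genes are switched on by the coactivator CIITA. A further large program of B cells is the interferon response, in which receptor signalling switches on the promoters of antiviral genes. The question here was how far a pair of clones made for the same purpose, against the same gene, carry the same transcriptome.

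Total counts ranged from 16328945 to 29655262 in #A-59 and from 15014347 to 27472928 in #B-20, and 15318 genes passed the filter on low counts. Mitochondrial transcripts took 1.25% to 1.97% of counts in #A-59 and 1.59% to 2.18% in #B-20. All 10 B cell marker genes passed the filter. None was called in the average over time, 7 were lower and 1 higher in #B-20 at an adjusted p under 0.01, and 1 was called higher at 0 h and 1 lower at 6 h, the latter only without GC correction. Of all 15318 genes, 5159 had an adjusted p under 0.01 in the average over time. Of 12 markers each of T cells, of myeloid cells and of erythroid and stromal cells, 3, 4 and 4 passed, and 1, the myeloid receptor gene Csf1r, was called. Over all genes, 6.12% were called in the average over time. The summed level of the T cell markers was 70.5 to 105.0 CPM (counts scaled to 1000000 per library) in #A-59 and 59.8 to 82.2 CPM in #B-20, that of the myeloid markers 6.6 to 13.3 and 5.1 to 9.0 CPM, and that of the erythroid and stromal markers 53.3 to 77.1 and 26.4 to 52.4 CPM, beside 7888.9 to 13090.2 and 6650.7 to 10685.8 CPM for the B cell markers. In these bulk samples, fewer cells of a type and less RNA per cell cannot be told apart. The first #A-59 libraries at 0 h and 6 h stood apart. Their deviations from the mean of the clone libraries followed the GC content of the genes, with Spearman correlations across genes of 0.408 and 0.529, while all 4 #B-20 libraries of these times had negative ones, from -0.414 to -0.248. Calls are therefore given without and with a correction for GC content, and a list member is counted as called in both fits where both made the call.

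The targeted gene came first. Tfeb (ENSMUSG00000023990, chromosome 17, 47737037 to 47792416 in GRCm38) was present in every library of both clones. It ranged from 25.5 to 40.5 CPM in #A-59 (median 30.1) and from 34.2 to 54.1 CPM in #B-20 (median 43.8). All 12 values lay under the lowest parental library, at 79.2 CPM, and at each time #B-20 was above #A-59, although the ranges over all times overlapped. Averaged over the 3 times, Tfeb was higher in #B-20 by a log2 fold change of 0.51 ± 0.06 (SE, adjusted p = 4.11e-06, or 0.74 with GC correction), which is under the fold threshold of the calls. Counts per gene do not show whether the remaining transcript encodes a protein.

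To compare the clones with time as a term, the mean difference over 0, 6 and 18 h was tested. A gene was called when the adjusted p was under 0.01 and the log2 fold change was above 1 or below -1. Of 15318 genes, 938 (6.12%) were called, 363 higher and 575 lower in #B-20 (3.75% lower). With GC correction the call counts were 351 and 540, and 835 genes were called in both fits, 318 higher (2.08%) and 517 lower (3.38%), none in opposite directions. The ranges of 6 against 6 libraries did not overlap at all for 456 genes with #B-20 above (2.98%) and for 717 with #B-20 below (4.68%).

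**Figure D1:**
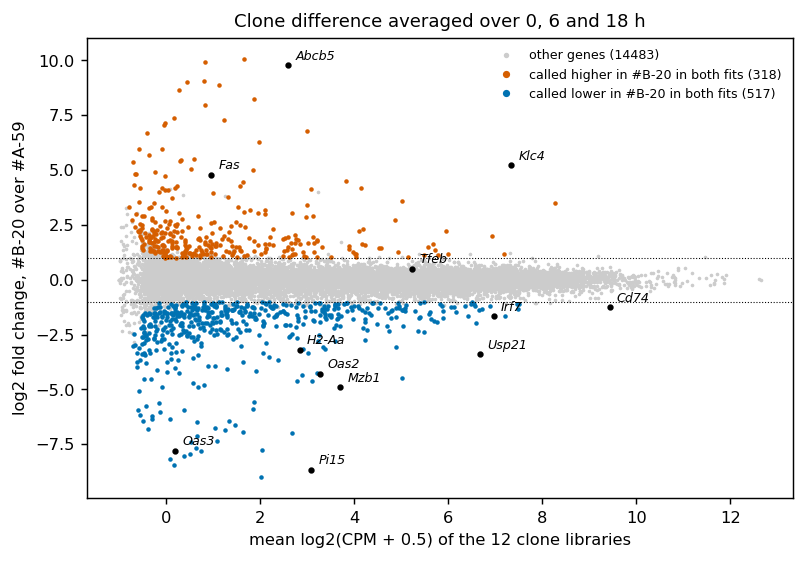
Each point is a gene, with the mean log2(CPM + 0.5) of the 12 clone libraries on the x axis and the log2 fold change of #B-20 over #A-59, averaged over 0, 6 and 18 h, on the y axis. Orange and blue points are the 318 and 517 genes called higher and lower in #B-20 without and with GC correction, dotted lines mark log2 fold changes of 1 and -1, and black points are named genes, with Tfeb inside the lines.

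By time point, 589 genes (3.85%) differed between the clones at 0 h, 891 (5.82%) at 6 h and 738 (4.82%) at 18 h. The corresponding GC-corrected counts were 526, 756 and 756. Without the first 6 h library of #A-59 the count at 6 h was 565. In all, 406 genes (2.65%) were called at each of the 3 times in a single direction, 137 higher and 269 lower in #B-20, and 363 of them also with GC correction at all times. Over 12481 genes above 1 CPM, the clone took 41.1% of the sum of squares of log2(CPM + 0.5) in the 12 libraries, time 41.4%, the clone by time term 5.67% and the spread between the paired libraries of a group 11.9%. As shares of the sum of squares, the clone term was thus about as large as the time term, and the clone by time term was the smallest. The terms have unlike degrees of freedom, which these shares do not take into account. They therefore do not place the clone by time term below the spread between libraries.

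The dependence on GC content differed by time. Across genes, the log2 fold change correlated with the GC content of the transcript with Spearman rho values of -0.399, -0.453 and -0.07 for 0, 6 and 18 h, and the correction brought these to -0.013, -0.046 and 0.004. These are correlations across genes, which are not independent replicates. In the tenth of genes with the lowest GC content the median log2 fold change was 0.248 at 0 h and 0.398 at 6 h, and in the tenth with the highest it was -0.249 and -0.28. Gene length showed no such relation (rho of -0.016 for the average over time).

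**Figure D2:**
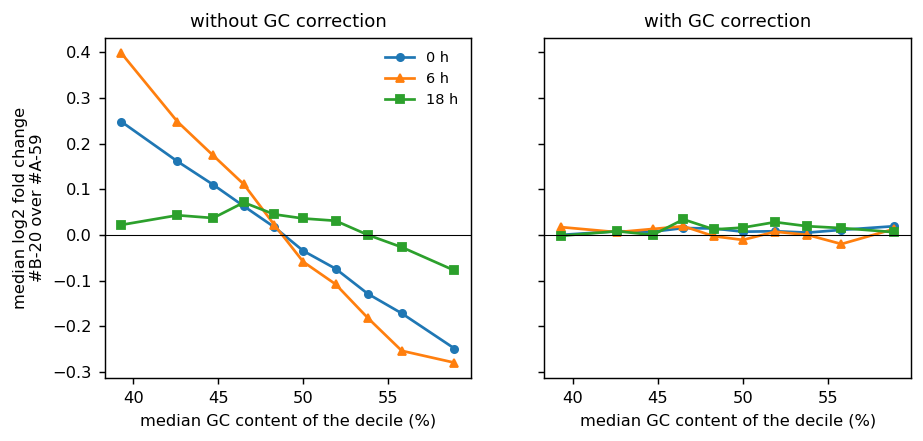
Genes were split into 10 equal groups by GC content (x axis, median percent of each group), and the y axis gives the median log2 fold change of #B-20 over #A-59 at 0 h (circles), 6 h (triangles) and 18 h (squares). The left panel, without correction, falls from 0.248 to -0.249 at 0 h and from 0.398 to -0.28 at 6 h and is nearly flat at 18 h, and in the right panel, with correction, all 30 medians lie near 0.

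Genes were then read by 38 lists, of which 16 had no gene called in both fits. The list with the most calls was that of the interferon program. Of 42 interferon-stimulated genes that passed the filter (51 in the list), 26 were called lower in #B-20 without and with GC correction, against 3.38% of all genes, and 0 were called higher. The median log2 fold change of the 42 was -1.70 (-1.63 with GC correction), beside 0.02 over all genes. The 26 included antiviral effectors (Oas2, Oas3, Oasl1, Oasl2, Mx1, Mx2, Ifit1, Isg15), sensors of viral nucleic acid (Ifih1, Dhx58, Zbp1), the transcription factors Irf7 and Irf9 and the feedback inhibitor Usp18, which removes ISG15 from proteins.

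Sequences upstream of 4 of these genes are shown because the interferon response element is the promoter element that this family is known for. They are the 150 bases before the transcription start (RefSeq, GRCm38.p6), written 5′ to 3′ on the strand of the gene, with matches to GAAANNGAA on either strand in capitals, where neighbouring matches overlap. Ifit1 is at chr19:34640739-34640888 (plus strand), Isg15 at chr4:156200819-156200968 (minus), Irgm1 at chr11:48871421-48871570 (minus) and Oas3 at chr5:120777660-120777809 (minus).
Ifit1: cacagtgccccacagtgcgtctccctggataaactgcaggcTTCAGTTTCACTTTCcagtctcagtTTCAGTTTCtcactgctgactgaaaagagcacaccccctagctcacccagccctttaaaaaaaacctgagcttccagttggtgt
Isg15: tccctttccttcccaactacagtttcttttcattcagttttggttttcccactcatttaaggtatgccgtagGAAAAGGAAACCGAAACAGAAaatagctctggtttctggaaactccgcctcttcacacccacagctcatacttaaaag
Irgm1: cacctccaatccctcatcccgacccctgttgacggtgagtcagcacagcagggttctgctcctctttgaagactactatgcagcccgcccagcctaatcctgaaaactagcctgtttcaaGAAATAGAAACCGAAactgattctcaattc
Oas3: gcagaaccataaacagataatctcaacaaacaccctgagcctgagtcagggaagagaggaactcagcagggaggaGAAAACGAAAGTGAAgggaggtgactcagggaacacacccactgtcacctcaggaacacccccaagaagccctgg
These letters stand within 250 bases before to 50 after the start in 8 of the 15 called genes with a promoter in the table (53.3%), in 19 of 30 tested members of the list (63.3%), in 8.32% of 10172 tested genes and in 9.76% of 27025 genes with a promoter. Among all genes called lower in #B-20 in both fits the share was 15.4% of 337, and among those called higher 9.22% of 206. A match is a description of these letters, not of binding.

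Oas2, which makes the activator of RNase L, in untreated #A-59 cells had 35.0 and 28.3 CPM, after 6 h 29.0 and 21.0 CPM and after 18 h 76.4 and 60.2 CPM. In #B-20 the levels were 2.28 and 1.98, 1.18 and 1.7, and 2.67 and 2.24 CPM. The ranges were far apart, and the log2 fold change was -4.28 ± 0.18 (SE, adjusted p = 2.16e-11), or 19.5-fold. The parental libraries stood between the clones at every time, from 5.37 to 53.4 CPM. Usp18 ran from 17.6 to 33.3 CPM in #A-59 (median 22.9) and from 1.67 to 2.85 CPM in #B-20 (median 2.33), a log2 fold change of -3.35 ± 0.26 (adjusted p = 3.84e-07).

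Irf7, the factor that amplifies type I interferon production, in untreated #A-59 cells had 184 and 140 CPM, after 6 h 252 and 186 CPM and after 18 h 331 and 276 CPM, and 53.5 and 47.6, 61.9 and 66.8, and 109 and 106 CPM in #B-20. Its 18 h levels lay above its 0 h levels in both clones, and the ranges of the clones did not overlap (log2 fold change -1.65 ± 0.11, adjusted p = 1.23e-08). Irf9, a transcription factor of the interferon response, lay between 132 and 250 CPM in #A-59 and between 54.9 and 91.9 CPM in #B-20 (-1.34 ± 0.07, adjusted p = 9.7e-12). Oas3 had 282 counts over the 6 #A-59 libraries and 1 count over the 6 #B-20 libraries, a ratio of 269 with a 95% counting interval of 47.9 to 10665. Rtp4, a chaperone for receptor transport that interferon induces, had 224 and 3 counts, a ratio of 71.2 (24.1 to 348).

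The genes of the signalling chain itself moved less. The receptor chains Ifnar1 and Ifnar2 had log2 fold changes of 0.14 ± 0.05 and -0.23 ± 0.07, and the kinase genes Jak1 and Tyk2 of 0.29 and -0.49. Stat2, a signal transducer of the receptor, had -0.73 ± 0.05 (adjusted p = 5.27e-10), under the fold threshold. Ifnb1 had 1 count in all #A-59 libraries and 0 in #B-20, and Ifng had 0 in both, where 3 counts are the limit that 0 allows. These pathway genes outside the list were picked after their values were seen. Not every member of the list was called. The guanylate binding proteins Gbp2, Gbp5 and Gbp7, which interferon gamma induces, had log2 fold changes of -0.15, 0.13 and 0.27, and Gbp3 of 0.56 (adjusted p = 1.03e-03), while their relatives Gbp4 and Gbp9 were called lower at -3.66 ± 0.73 and -3.04 ± 0.22.

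By time, 21 members of the interferon list were called lower at 0 h (2.57% of all genes), 23 at 6 h (3.63%) and 27 at 18 h (2.83%), and 20, 22 and 29 with GC correction. None of the 42 passed an adjusted p under 0.01 for a difference between the clones in the response to anti-IgM, at 6 h or at 18 h. Of all 15318 genes, 1 and 8 passed it. At an unadjusted p under 0.05, 0 and 7 of the 42 passed at 6 h and 18 h, beside 987 and 1989 of all genes. The median response difference of the 42 was -0.11 and -0.47, beside 0.02 and 0.04 over all genes, without GC correction. The summed level of the list was 2190.0 to 3660.6 CPM in the 6 #A-59 libraries, 1137.4 to 1537.9 CPM in the 6 #B-20 libraries and 1346.1 to 3222.7 CPM in the parental ones. At 0 h and 6 h the parental sums lay between those of the clones, and at 18 h the parental range, 2368.6 to 3222.7 CPM, overlapped that of #A-59. Without both #A-59 libraries whose deviations followed GC content, 23 members were called lower. The members Ifit1, Mx1 and Rsad2 dropped out, with adjusted p = 0.0133, 0.0276 and 0.0146. Rsad2, the gene of viperin, was near the detection limit with 33 and 5 counts, and its call ended without any of 10 single libraries, that is all but the first 6 h and the second 18 h #A-59 library (highest adjusted p = 0.0299, at a log2 fold change of -2.46, without the first 18 h #A-59 library).

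**Figure D3:**
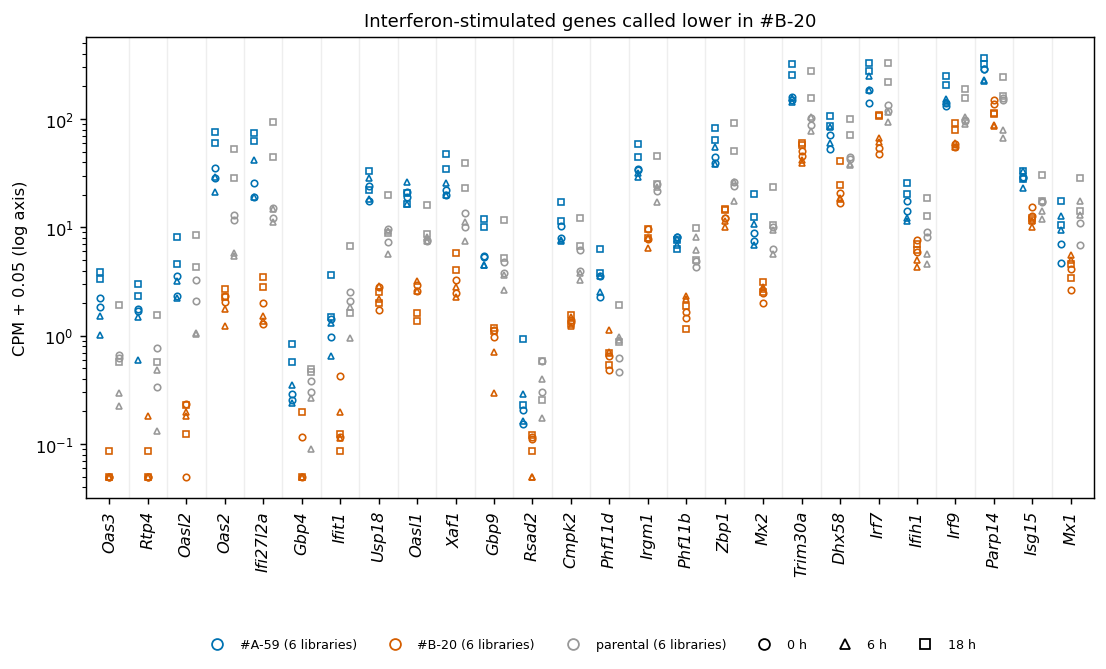
The 26 interferon-stimulated genes called lower in #B-20 are ordered on the x axis by log2 fold change, and the log y axis gives CPM + 0.05 in each library, in blue for #A-59, orange for #B-20 and grey for parental cells, with circles, triangles and squares for 0, 6 and 18 h. For Oas2 the blue symbols lie between 21.0 and 76.4 CPM and the orange ones between 1.18 and 2.67 CPM.

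Genes of MHC class II presentation were the second group. All 14 members of the list were tested, all 14 had a negative log2 fold change, and 5 were called lower in #B-20 in both fits: H2-Aa, H2-Ab1 and H2-Eb1, which encode chains of the class II molecules, Cd74, which encodes the invariant chain, and their coactivator Ciita. The median of the list was -0.82 (-0.72 with GC correction). The share of genes called lower in both fits over all genes was 3.38%. By time, 5, 6 and 5 members were called lower after 0, 6 and 18 h, or 3, 4 and 6 with GC correction.

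The promoters of H2-Aa (chr17:34287824-34287973, minus) and H2-Eb1 (chr17:34305717-34305866, plus) are shown for the Y box, the inverted CCAAT element of class II promoters, as 150 bases before the start with CTGATTGG in capitals (RefSeq, GRCm38.p6). It was searched on both strands.
H2-Aa: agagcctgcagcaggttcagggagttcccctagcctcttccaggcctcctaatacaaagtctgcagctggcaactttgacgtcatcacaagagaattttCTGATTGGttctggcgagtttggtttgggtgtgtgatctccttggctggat
H2-Eb1: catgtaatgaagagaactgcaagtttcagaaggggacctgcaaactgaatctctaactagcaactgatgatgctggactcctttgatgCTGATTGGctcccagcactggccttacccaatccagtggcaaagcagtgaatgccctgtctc
The letters were found in 4 of 10 tested list members with a promoter in the table (40.0%), in 6.78% of 10172 tested genes and in 4.7% of all 27025. Among genes called lower and higher in #B-20 in both fits the shares were 4.45% of 337 and 8.74% of 206. Of the called members, Ciita, H2-Ab1 and Cd74 are named only.

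H2-Aa in untreated #A-59 cells had 9.38 and 14.1 CPM, after 6 h 9.51 and 11.2 CPM and after 18 h 57.8 and 56.9 CPM. In #B-20 it had 1.67 and 2.05, 0.935 and 1.57, and 3.41 and 4.51 CPM. Even the 18 h libraries of #B-20 were below every #A-59 library (log2 fold change -3.19 ± 0.17, adjusted p = 1.12e-09), and all 12 values were below the lowest parental library at 68.2 CPM. Ciita ran from 7.58 to 45.0 CPM in #A-59 (median 9.53) and from 1.43 to 6.72 CPM in #B-20 (median 1.66), without overlap (-2.67 ± 0.12, adjusted p = 2.95e-12). Cd74 had 678 to 2145 CPM in #A-59 and 278 to 791 CPM in #B-20. Its ranges overlapped across times, and at each time both #A-59 libraries were above both #B-20 libraries (-1.24 ± 0.07, adjusted p = 6.69e-11). For Cd74 the parental range of 660 to 1892 CPM lay close to that of #A-59, while for H2-Aa it was above both clones.

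H2-Ab1 and H2-Eb1 had log2 fold changes of -3.31 ± 0.48 and -1.68 ± 0.11. H2-Ab1 was low in both clones, with 250 and 20 counts in all. H2-DMa, a chain of the peptide exchange factor, and H2-Ob, a chain of its modulator, had -0.94 ± 0.07 and -0.91 ± 0.10, under the fold threshold, and the RFX complex genes Rfx5 and Rfxap, which bind class II promoters, had -0.01 ± 0.05 and -0.17 ± 0.09. Some gene spans overlap in a GENCODE annotation that is newer than the annotation used for the counts. The pairs are H2-Eb1 and H2-Aa, Ciita and Dexi, Irf7 and Phrf1, Irf9 and Rnf31, Gbp4 and Gbp9, and Klc4 and Mrpl2. From the RefSeq starts shown above, however, H2-Aa and H2-Eb1 lie on opposite strands and run away from each other. The libraries were not stranded, so reads from any shared stretches cannot be told apart. In the MHC class I list, 14 of 17 tested genes were below 0 and the median was -0.53 (-0.44 with GC correction). In both fits only Nlrc5, the class I coactivator, was called lower (-2.16 ± 0.41), beside 3.38% of all genes.

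**Figure D4:**
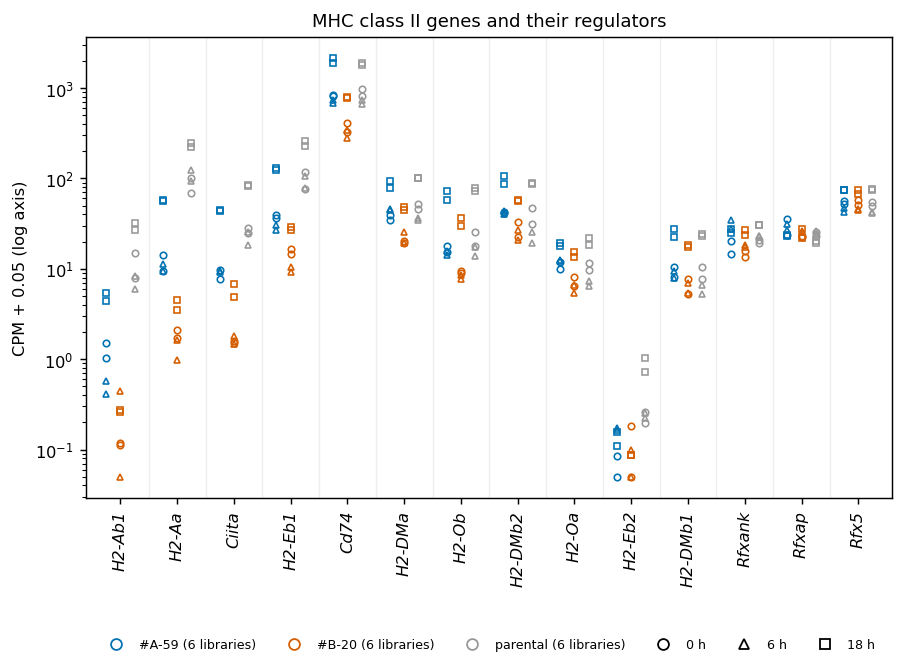
The 14 genes of the MHC class II list are ordered on the x axis by log2 fold change, and the log y axis gives CPM + 0.05 in every library, with colors for the clones and parental cells and symbols for 0, 6 and 18 h. H2-Aa shows 9.38 to 57.8 CPM in #A-59, 0.935 to 4.51 CPM in #B-20 and 68.2 to 246 CPM in parental cells, and Rfx5, at the right, shows no separation.

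Lysosomal genes, the classical targets of TFEB, were shifted by less than the threshold. Of 55 tested, 50 had a negative log2 fold change and 39 of these had an adjusted p under 0.01, against 2 in the other direction. Over all 15318 genes, 5159 had an adjusted p under 0.01 in either direction. The median was -0.35 (-0.34 with GC correction) beside 0.02 for all genes, and the summed level was 6478.3 to 8771.3 CPM in #A-59 and 5551.5 to 6744.7 CPM in #B-20. In parental cells the sum was 6360.4 to 8430.8 CPM. #B-20 had the lower level of these genes and the higher level of transcript from the edited Tfeb gene, and a link between them was not tested. Only 1 member in each direction was called in both fits, beside 2.08% of all genes higher and 3.38% lower. Lgmn, the asparaginyl endopeptidase legumain, had 35.9 to 58.2 CPM in #A-59 and 12 to 21.4 CPM in #B-20 (-1.52 ± 0.08, adjusted p = 2.03e-11). Ctsc, the protease cathepsin C, had 45.6 to 85.0 CPM in #A-59 and 207 to 305 CPM in #B-20 (1.99 ± 0.06, adjusted p = 6.23e-15). Parental cells, at 237 to 413 CPM, were near #B-20 for Ctsc, and at 58.8 to 114 CPM above both clones for Lgmn.

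The promoter of Lgmn is printed because it holds the letters of the E box that TFEB is known to bind. The 150 bases lie at chr12:102439093-102439242 on the minus strand (RefSeq, GRCm38.p6), upstream of 1 of the listed start sites (the 150 bases before another one hold no match), and GTCACGTG, searched on both strands, is in capitals.
Lgmn: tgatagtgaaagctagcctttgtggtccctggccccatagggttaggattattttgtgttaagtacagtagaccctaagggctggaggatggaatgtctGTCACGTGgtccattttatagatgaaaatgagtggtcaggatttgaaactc
These letters were found in 14 of 42 tested lysosomal genes with a promoter in the table (33.3%) and in 2.55% of all 27025. Among genes called lower and higher in #B-20 in both fits the shares were 3.56% of 337 and 2.91% of 206, both under the 4.67% of 10172 tested genes. Of 46 autophagy genes 0 were called, beside 6.12% of all genes, with a median of -0.17 (-0.12 with GC correction). Of these, 35 were below 0, and at an adjusted p under 0.01 alone 17 were lower and 0 higher, beside 5159 of all 15318 genes in either direction.

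Cell death and cytokine receptors showed single large differences. Fas, the death receptor, in untreated #A-59 cells had 0.271 and 0.155 CPM, after 6 h 0.189 and 0.242 CPM and after 18 h 0.105 and 0.121 CPM, and 6.89 and 7.87, 3.69 and 3.33, and 5.05 and 4.55 CPM in #B-20. No library of #A-59 came near those of #B-20, and the parental libraries, at 0.205 to 0.904 CPM, lay close to #A-59 (log2 fold change 4.79 ± 0.22, adjusted p = 2.95e-12). Tnfrsf1a, the main receptor for TNF, went the other way, with 5.95 to 14.4 CPM in #A-59 and 0.682 to 1.42 CPM in #B-20 (-3.34 ± 0.13, adjusted p = 3.37e-13). In the Bcl-2 family 1 of 21 tested genes was called in both fits, Bcl2l14, higher in #B-20 (1.57 ± 0.13), where 2.08% of all genes were called higher in both. Il6ra, the binding chain of the interleukin-6 receptor, had 82.7 to 119 CPM in #A-59 and 21.5 to 32.7 CPM in #B-20 (-1.92 ± 0.06, adjusted p = 1.85e-14).

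Of 27 costimulatory and activation genes, 4 were called higher in #B-20 in both fits (2.08% of all genes) and 2 lower (3.38%). The higher ones were Cd44, the hyaluronan receptor (1.13 ± 0.06), Cd200, an inhibitory ligand (1.64 ± 0.08), Slamf1 and Slamf7. Lag3, an inhibitory MHC class II receptor, fell with Il6ra (-2.25 ± 0.24). S1pr1, which guides lymphocytes out of lymphoid tissue, had 5.64 to 15.4 CPM in #A-59 and 18.3 to 49.9 CPM in #B-20 (1.61 ± 0.11, adjusted p = 8.56e-10). Among 30 integrin and adhesion genes 5 were called lower and 0 higher in both fits, beside 3.38% and 2.08% of all genes. Itgb5, the beta 5 integrin chain, had 432 counts in #A-59 against 2 in #B-20 and thus a ratio of 206 (56.7 to 1707), and Itgam, Itgb7, Cd9 and L1cam had log2 fold changes from -1.87 to -1.29.

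Of 37 BCR signalling genes 1 was called, the adaptor Sh3bp2 (-1.38 ± 0.08), and of 21 BCR chains and coreceptors 1, the inhibitory receptor Pirb (-1.44 ± 0.07), whose reads may be shared with the near-identical Pira genes, beside 6.12% of all genes. At an adjusted p under 0.01 without the fold threshold, 20 of the 37 were lower and 2 higher in #B-20, and 10 of the 21 lower and 3 higher. By this rule 5159 of all 15318 genes passed, in either direction. Of 25 immediate early genes, 3 were called higher and 2 lower in both fits, beside 2.08% and 3.38% of all genes. Spred1, an inhibitor of Ras signalling, had 583 counts in #A-59 and 5 in #B-20 (-7.13 ± 0.37, adjusted p = 6.19e-11). Egr1, a zinc finger factor induced by Ras and ERK signalling, had 1.66 and 1.4, 1.59 and 1.03, and 8.96 and 2.95 CPM at 0, 6 and 18 h in #A-59 and 9.1 and 10.8, 44.7 and 20.5, and 71.5 and 21.9 CPM in #B-20. The libraries of a group differed by more than 2-fold at 6 h and 18 h in #B-20, and the log2 fold change was 3.4 ± 0.6 (adjusted p = 1.28e-03). Without both #A-59 libraries whose deviations followed GC content it was 3.59 ± 0.93 (adjusted p = 0.0195), which ended the call. Lef1, the TCF family factor of early B cells, was higher in #B-20 (1.85 ± 0.11) and its relative Tcf7l1 lower (-1.98 ± 0.25).

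In metabolism, 4 of 23 glycolysis genes were called lower in both fits (3.38% of all genes) and 0 higher, while the median of the list was -0.14. Aldoc, aldolase C, had 20.3 to 49.3 CPM in #A-59 and 0.895 to 2.24 CPM in #B-20 (-4.32 ± 0.20, adjusted p = 1.23e-10). The others were Hk1 (-1.69), Eno3 (-1.22) and Pfkp (-1.11). The call of Pfkp ended without the first #A-59 library of any time or the second #B-20 library of any time (highest adjusted p = 0.016, at a log2 fold change of -1.03, without the first 0 h #A-59 library). None of 59 oxidative phosphorylation genes, 78 cytosolic ribosomal protein genes, 48 DNA replication genes, 40 mitosis genes and 30 cholesterol and fatty acid genes was called in the average over time (6.12% of all genes). At an adjusted p under 0.01 alone, 10, 29, 30, 18 and 1 were higher and 0, 0, 1, 0 and 10 lower, in that order, beside 5159 of all 15318 genes. By time, 1 ribosomal protein gene was called higher at 6 h in both fits. Without GC correction only, 1 DNA replication gene was called higher at 18 h and 1 cholesterol and fatty acid gene lower at 6 h. In the DNA replication list 43 of 48 genes were above 0 with a median of 0.26 (0.23 with GC correction), and by time the median was 0.09 in untreated cells, 0.00 after 6 h and 0.61 after 18 h. Of the 48 genes, 36 had an unadjusted p under 0.05 for the difference in the 18 h response, beside 1989 of all 15318. At an adjusted p under 0.01, 0 of the 48 passed, beside 8 of all genes. These counts and the medians by time are without GC correction. Across genes, the 18 h response difference correlated with GC content at a Spearman rho of 0.338, or 0.035 with correction. In the mitosis list 37 of 40 were above 0, with a median of 0.18.

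Among the genes picked by the width of the gap between the 6 and 6 libraries, several were nearly absent from 1 clone. Klc4, a kinesin light chain gene, had 19.8 and 19.6, 25.1 and 23.9, and 36.0 and 38.5 CPM at 0, 6 and 18 h in #A-59 and 802 and 886, 879 and 923, and 1229 and 1224 CPM in #B-20. The parental libraries, which reached at most 40.2 CPM, lay close to #A-59 (log2 fold change 5.22 ± 0.06, adjusted p = 1.93e-21). Abcb5, a multidrug transporter gene, had 52.4 to 71.1 CPM in #B-20 and at most 0.362 CPM in any #A-59 or parental library (9.77 ± 0.24). Alkbh3, which repairs alkylated DNA, showed another pattern: #B-20 (17.9 to 25.3 CPM) and parental cells (13.2 to 17 CPM) had it, while #A-59 had 11 counts in all (at most 0.301 CPM). Pygl, the liver glycogen phosphorylase, also was low in #A-59, at 0.227 to 1.09 CPM, with 33.7 to 137 CPM in #B-20 and 13.8 to 70.4 CPM in parental cells. Cstf2t, a cleavage stimulation factor gene whose span lies in that of Prkg1, had 63.9 to 77.2 CPM in #B-20 and 3.26 to 4.32 CPM in #A-59.

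In the lower direction, Pi15, a secreted peptidase inhibitor gene, had 61.1 to 168 CPM in #A-59 and at most 0.653 CPM in #B-20 and 0.467 CPM in parental cells (-8.65 ± 0.26, adjusted p = 6.25e-12). Il22ra1, a chain of the interleukin-22 receptor, was likewise high in #A-59 only, at 20.6 to 30.9 CPM. Usp21, a deubiquitinase gene, had 300 to 349 CPM in #A-59, 27.9 to 34.6 CPM in #B-20 and 28.4 to 32.5 CPM in parental cells (-3.4 ± 0.05, adjusted p = 2.97e-19). Mzb1, which helps immunoglobulin assembly in the endoplasmic reticulum, had 53.2 to 76.0 CPM in #A-59, 1.81 to 2.34 CPM in #B-20 and 4.83 to 8.03 CPM in parental cells (-4.91 ± 0.09, adjusted p = 2.67e-18). Eci2 and Ehhadh, which both act in peroxisomal fatty acid oxidation, were nearly absent in #B-20, with at most 0.268 and 0.213 CPM there, at least 22.7 and 10.7 CPM in #A-59 and at least 10.4 and 2.23 CPM in parental cells. Nfam1, an ITAM receptor gene of B cells, had 108 to 247 CPM in #A-59 and 5.09 to 8.69 CPM in #B-20 (-4.47 ± 0.08).

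**Figure D5:**
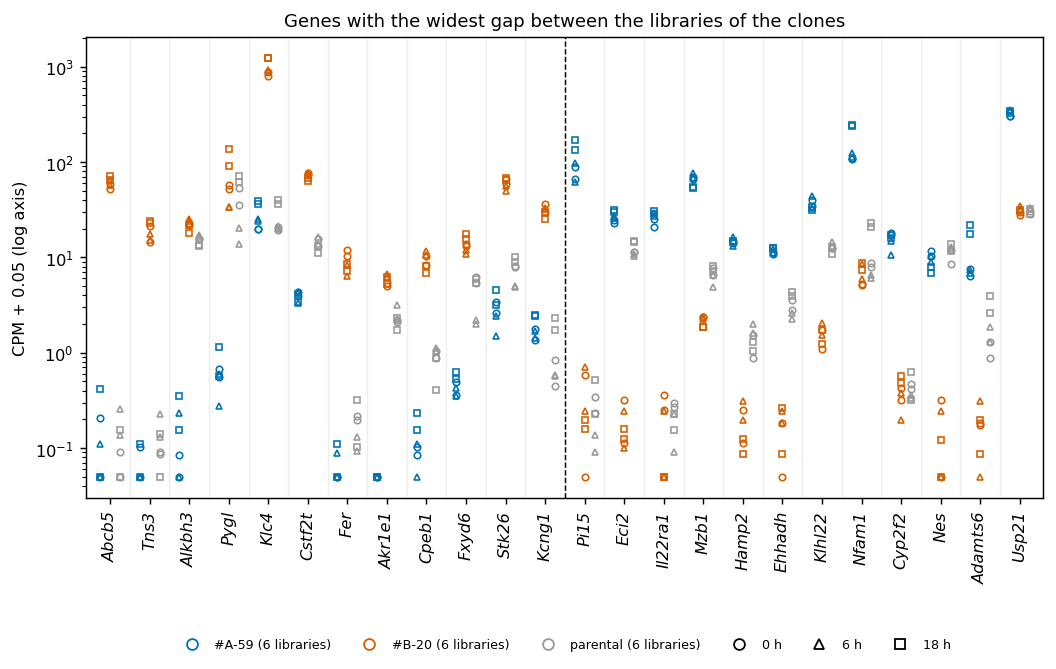
The 12 genes higher (left of the dashed line) and the 12 lower (right) in #B-20 with the widest gap between the clones are on the x axis, and the log y axis gives CPM + 0.05 per library, with colors for the clones and parental cells and symbols for 0, 6 and 18 h. Parental cells sit with #A-59 for Klc4 (at most 40.2 CPM), with #B-20 for Usp21 (28.4 to 32.5 CPM) and between the clones for Mzb1 (4.83 to 8.03 CPM).

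By a rule set after the values were seen, a gene was taken as off in a clone when none of its 6 libraries had over 3 counts and as on when all 6 had at least 1 CPM. It found 23 genes (0.15%), 12 off in #B-20 and 11 off in #A-59. Parental cells had 4 of the 12 on and 6 off, and 4 of the 11 on and 0 off, while the rest were between. Akr1e1, an aldo-keto reductase gene, and Cfap20dc had 0 counts in #A-59 and were at least 245-fold and 106-fold higher in #B-20, taking 3 counts over the 6 libraries as the floor. Both were on in parental cells, at 1.69 to 3.1 CPM and 1.45 to 3.3 CPM. Cyp2a12 and Kcnv2 had 0 counts in #B-20 and were at least 83.0-fold and 69.0-fold lower there, and they were off in parental cells too. Zfp2, a zinc finger gene, was off in #B-20 alone, with 514 counts in #A-59 and 2 in #B-20 (ratio 245, 67.5 to 2030). Il1rap, the accessory chain of the interleukin-1 receptor, was off in #A-59 alone, with 1 count against 634 (ratio 664, 119 to 26285). These intervals cover counting error only.

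Over the genes called in both fits, parental cells were nearer to #A-59 for 147 of the 318 genes higher in #B-20 (46.2%) and for 297 of the 517 lower ones (57.4%). Their mean lay between those of the clones for 184 and 326 genes. Neither clone was thus nearer to the parental level for all of these genes.

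Along the genome, the median log2 fold change of the 20 chromosomes ran from -0.055 (chromosome 17) to 0.124 (chromosome 13), and with GC correction from -0.002 to 0.059. Neighbouring genes moved together in 20 runs of at least 3 consecutive tested genes, 5 higher and 15 lower in #B-20, with 70 genes in all. Several were families with shared sequence, in which reads of copies may be split: Pirb with the Pira genes, Trim30b with Trim30c and Trim30a, Phf11b with Phf11d and Phf11c, and on chromosome 7 Cyp2a12 with Cyp2f2 (log2 fold changes of -8.43 to -5.55 in that run). The run H2-Ab1, H2-Aa and H2-Eb1 lies on chromosome 17. On chromosome 19 the run with Ms4a6c, Ms4a6b and Ms4a2 was higher in #B-20, by 1.33 to 2.36. Of 14 immunoglobulin variable segments tested, 1 was called in both fits. Of 20 imprinted genes Peg13 was called higher (1.25 ± 0.07) with Grb10 and Gnasas1, and the growth regulator Plagl1 lower (-1.86 ± 0.08). Over all genes, 2.08% were called higher and 3.38% lower in both fits.

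Of 18 genes picked from the study, its supplementary tables and an earlier account of these data, 16 were tested, and H2-Aa, Ciita, H2-Eb1 and Sgk1 were called in both fits. The shares over all genes were 2.08% higher and 3.38% lower. The list was picked with results of these samples known, so its count is no independent evidence. Sgk1, a kinase gene of the PI3K pathway, had 2.4 to 4.47 CPM in #A-59 and 5.56 to 12.4 CPM in #B-20 (1.36 ± 0.12, adjusted p = 6.94e-08), both above the parental 0.326 to 0.874 CPM. Nrp2 and Ptpn13 had log2 fold changes between the clones of 0.21 ± 0.07 and 0.67 ± 0.09, under the threshold. Bcl2l15, the BH3 gene Bfk, was at 3.56 to 6.34 CPM in #A-59 and 6.08 to 9.04 CPM in #B-20, against at least 239 CPM in parental cells. Cxcr4 and Ccr7, chemokine receptor genes, had log2 fold changes of 0.53 ± 0.14 and 0.04 ± 0.21, and Ripk3, the necroptosis kinase, had -1.04 ± 0.29 without and -0.93 with GC correction. The call of Ripk3 ended without any of 7 single libraries, namely the first ones of both clones at 0 h and 6 h, the second 18 h #A-59 library and the second 0 h and 18 h #B-20 libraries (highest adjusted p = 0.0852, at a log2 fold change of -0.79, without the first 0 h #A-59 library).

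The response to anti-IgM itself was tested for a difference between the clones. At 6 h 1 gene passed (0.00653%), Fcmr, and at 18 h 5 genes (0.0326%), Ikbke, Asns, Aldh18a1, Rps13-ps2 and Apoe, while 987 and 1989 genes had an unadjusted p under 0.05 and DESeq2 called 7 and 14 genes. Without the second 0 h #B-20 library 0 genes passed at 6 h, with Fcmr at an adjusted p = 0.0134, and without the first 18 h #A-59 library 1 passed at 18 h, with the adjusted p of Ikbke, Asns, Aldh18a1 and Rps13-ps2 between 0.0307 and 0.0343. Fcmr, the Fc receptor for IgM, in untreated #A-59 cells had 35.3 and 31.7 CPM and after 6 h 42.2 and 42.2 CPM, and 9.37 and 9.11 CPM and then 33.7 and 32.2 CPM in #B-20. Its 6 h minus 0 h change on the log2 scale was 1.5 ± 0.16 higher in #B-20 (adjusted p = 4.59e-04). Apoe, apolipoprotein E, in untreated #A-59 cells had 56.1 and 59.4 CPM and after 18 h 141 and 144 CPM, and 28.2 and 29.5 CPM and then 25.8 and 30.3 CPM in #B-20, so that the 18 h libraries of #A-59 stood above its 0 h libraries and those of #B-20 did not (difference in log2 change -1.35 ± 0.16, adjusted p = 1.15e-03). Asns, asparagine synthetase, went from 111 and 113 CPM to 21.7 and 24.4 CPM in #A-59 and from 126 and 124 CPM to 54.6 and 53.6 CPM in #B-20 (difference in log2 change 1.07 ± 0.13, adjusted p = 1.52e-03). In the list of ER stress and ATF4 genes, to which Asns belongs, 4 of 28 were called higher in #B-20 at 18 h (1.98% of all genes) and 0 before.

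Of the 118 named genes that were called, 101 kept their call with GC correction, with DESeq2, with DESeq2 size factors, with only the 12 clone libraries, with a replicate block, without both #A-59 libraries whose deviations followed GC content and without each single library, and none changed direction under these settings. Leaving out a single library ended 13 calls. Besides Rsad2, Pfkp and Ripk3 these were the myeloid marker Csf1r (by any of 10 libraries, -2.1, and -2.02 with adjusted p = 0.0384 without the second 0 h #A-59 library), the imprinted genes Grb10 (by any of 7, 1.8, and 1.5 with adjusted p = 0.0494 without the second 18 h #B-20 library) and Gnasas1, the chemokine receptor Ccr1 (by any of 6, -1.02, and -0.91 with adjusted p = 0.0356 without the first 6 h #A-59 library), Gpr183, Ccnd1, Mid1, Nr4a3, Lta and Tnfrsf1b. Lta and Mid1 rested on 1 library, the first 0 h #B-20 library, without which they had log2 fold changes of -1.0 and 0.87. In Gnasas1, Gpr183, Ccnd1, Nr4a3, Lta and Mid1 the highest adjusted p stayed under 0.01 and the fold fell to the threshold or below it.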

How the data were processed

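Poly(A) RNA of 18 cultures was sequenced as non-stranded single-end libraries. The authors processed the reads with bcl2fastq 2.20.0.422, STAR 2.5 (GRCm38, Ensembl annotation) and featureCounts 1.5.0-p1, with versions per the submitters' processing notes (the study's methods name an earlier bcl2fastq), and deposited raw counts per gene, which are not normalized. The 2 libraries of a group are independent experiments on 1 clone, so p-values measure the spread between experiments.

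Counts of all 18 libraries were fitted with edgeR 4.0.16 (R 4.3.3, quasi-likelihood, robust, TMM, filterByExpr, 9 group means), and 15318 of 55487 genes were tested. Contrasts were #B-20 minus #A-59 averaged over time, at each time, and between times. P-values were adjusted by Benjamini-Hochberg over all genes tested, and a call needed an adjusted p under 0.01 with a log2 fold change beyond 1 in either direction. For the GC correction, a loess offset (span 0.5) per library was fitted on transcript GC content, known for 99.2% of tested genes. CPM is the count scaled to a TMM-adjusted total of 1000000. Genes were named by a list picked from the study, its supplementary tables and an earlier account, list membership with a call in both fits, the 12 widest gaps per direction (at log2(CPM + 0.5)), and response calls. The on and off genes and the interferon pathway genes outside the list were added after values were seen. Members and lists were chosen with earlier results of these data known. Calls of the clone difference were tested on simulated data with the same spread for all genes, no GC trend and changes only in well-counted genes. The simulation thus does not show how calls fare under a GC trend or near the detection limit. Coordinates are GRCm38, and promoters are RefSeq's. DESeq2 1.42.0, other scalings and filters, a replicate block and leaving out libraries were tried. Total counts per library, given with the results, set the precision, and intervals and floors cover counting error only.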

Additional observations from a re-analysis of the deposited data

Results flagged for a closer look

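The response to anti-IgM differed between the clones, by the test of the difference itself (edgeR), in 6 genes. Each value is the log2 change from 0 h in #B-20 minus that in #A-59. At 6 h it was 1.5 for Fcmr (SE 0.16, adjusted p = 4.59e-04), whose 0 h level was 9.37 and 9.11 CPM in #B-20 and 35.3 and 31.7 CPM in #A-59, and 61.1 and 70.3 CPM in parental cells.

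At 18 h it was 1.76 for Ikbke, a kinase gene of interferon and NF-kB signalling (SE 0.23, adjusted p = 0.00247). Ikbke went from 14.8 and 13 CPM at 0 h to 3.09 and 3.38 CPM at 18 h in #A-59, from 14.7 and 18.4 CPM to 12.9 and 12.9 CPM in #B-20, and from 10.7 and 14 CPM to 5.44 and 5.13 CPM in parental cells. It was 1.07 for Asns (SE 0.13, adjusted p = 0.00152) and 1.02 for Aldh18a1, which acts in proline synthesis (SE 0.14, adjusted p = 0.00271). Aldh18a1 went from 155 and 143 CPM to 31.9 and 36.9 CPM in #A-59 and from 164 and 164 CPM to 74.8 and 78.5 CPM in #B-20, and its difference was 0.91 with GC correction, under the fold threshold. It was -1.35 for Apoe (SE 0.16, adjusted p = 0.00115), where parental cells went from 34.3 and 38.8 CPM to 63.4 and 74.1 CPM. The value of 2.40 for Rps13-ps2 (SE 0.34, adjusted p = 0.00282) belongs to a pseudogene that may share reads with Rps13 and is uncertain. Leaving out 1 of the 12 clone libraries at a time ended the call of Fcmr in 1 case, of Asns in 2, of Ikbke in 4, of Aldh18a1 in 5 and of Rps13-ps2 in 6, and of Apoe in 0 (highest adjusted p = 0.00977). With only the 12 clone libraries in the fit, Aldh18a1 and Rps13-ps2 had an adjusted p = 0.0372. All groups hold 2 libraries, too few for a test of single outlying samples.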

How the results depend on the processing

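No called named gene changed direction under the alternatives it was recomputed with. Small values could change sign. The median of the list of NF-kB subunits and inhibitors, for example, was -0.07 without and 0.07 with GC correction. The count of 938 genes averaged over time was 853 to 1070 under other scalings, tools, designs and no filter. With at least 10 counts required in every clone library, which removes genes that are off in 1 clone, it was 394, and the counts were 355 at 0 h, 549 at 6 h and 438 at 18 h, of 12080 genes tested. The response counts of 1 at 6 h and 5 at 18 h were 7 and 14 with DESeq2 and 16 and 51 with no filter, and the 18 h count was 3 with only the 12 clone libraries. A replicate block gave 6 and 12 response genes (7 and 12 with GC correction) and 950, 629, 965 and 780 genes averaged and at 0, 6 and 18 h. Same-numbered libraries correlated in their deviations at -0.07 to 0.54 over 15 pairs of groups, 12 of them over 0.1, which does not settle whether a number marks a shared experiment. Without the first 0 h and 6 h #A-59 libraries, an alternative chosen after seeing the data, the 6 h count was 556 and the 6 h response count 2. Leaving out 1 library at a time gave 879 to 1018 genes averaged over time, 397 to 624 at 0 h, 565 to 1155 at 6 h (without the first and the second 6 h #A-59 library), 510 to 747 at 18 h, 0 to 9 (0 without the second 0 h #B-20 library) and 1 to 14 (1 without the first 18 h #A-59 library) for the responses, 25 to 27 interferon genes and 5 to 6 MHC class II genes. The causes were not tested. With 2 libraries per group, depth limits genes of few counts most.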
